A study of Rattus norvegicus with 17 samples.

Results

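The growth hormone, STAT5 and IGF axis was followed through 8 genes in the liver of male rats dosed with IPP (isopropylated phenol phosphate), a triaryl phosphate mixture sold as a flame retardant and plasticizer. The genes were set by name: Ghr and Stat5b on the receptor side, Socs2 and Cish as feedback inhibitors, Igf1 with its circulating partners Igfals and Igfbp3, and Igfbp2. They were 8 of the 14217 genes on the array, and each was read from the brightest of its probe sets over the 17 arrays. All 17 animals were male Harlan Sprague Dawley rats dosed by oral gavage in corn oil, once daily for 4 days, and liver was taken on day 5. Corn oil alone went to 5 vehicle rats, and 3 rats each received 76.5, 153, 305.5 or 611 mg of IPP per kg body weight per day, which equals 0.169, 0.338, 0.675 or 1.35 mmol/kg. Neither the age of the rats nor the time of day of sampling is given in the labels. RNA came from pieces of the left lobe, so each array holds the sum of all liver cell types, and fewer cells of a type and less RNA per cell cannot be told apart.

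Growth hormone binds its receptor, the product of Ghr, and activates the kinase JAK2, which phosphorylates the transcription factor STAT5B. In hepatocytes STAT5B drives Igf1, the hormone that carries much of the growth signal, and Igfals, the acid-labile subunit that holds IGF-I in the blood. It also drives Socs2 and Cish, whose proteins bind the receptor complex and shut it down. IGFBP3 completes the circulating complex, and in rat liver its RNA is known to come mainly from non-parenchymal cells such as sinusoidal endothelium and Kupffer cells rather than from hepatocytes. Male rats secrete growth hormone in pulses, and liver STAT5 activity follows those pulses.

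STAT5 binds palindromes of the form TTCNNNGAA, so the promoters of the genes were searched for these letters and for the tighter form TTCCNGGAA, a subset of the first. Both read the same on either strand. RefSeq promoter windows on GRCr8, from 250 bases before to 50 bases after the start, matched 7 of the 8 genes. The gene without a window was Socs2, whose promoter was therefore not searched. Cish, on chromosome 8, held 4 matches of TTCNNNGAA and 2 of TTCCNGGAA, and the other 6 matched genes held 0. Among 33469 promoters of that length 8.87% held TTCNNNGAA at least once, 1.27% held TTCCNGGAA, and 8 promoters held 3 or more matches of TTCNNNGAA. The 250 bases before the Cish start (chr8:116850719-116850968, plus strand) are shown with the 4 matches in capitals because they are the only ones among the 7 promoters. Those before Igfbp3 (chr14:86277945-86278194, minus strand), the gene that fell at both higher doses, are shown beside them and hold none. Both run 5' to 3'.
Cish: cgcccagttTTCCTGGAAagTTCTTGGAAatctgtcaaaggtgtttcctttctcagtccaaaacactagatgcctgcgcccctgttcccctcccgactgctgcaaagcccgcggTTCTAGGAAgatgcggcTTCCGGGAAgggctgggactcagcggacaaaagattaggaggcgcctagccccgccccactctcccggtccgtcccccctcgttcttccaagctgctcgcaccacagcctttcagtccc
Igfbp3: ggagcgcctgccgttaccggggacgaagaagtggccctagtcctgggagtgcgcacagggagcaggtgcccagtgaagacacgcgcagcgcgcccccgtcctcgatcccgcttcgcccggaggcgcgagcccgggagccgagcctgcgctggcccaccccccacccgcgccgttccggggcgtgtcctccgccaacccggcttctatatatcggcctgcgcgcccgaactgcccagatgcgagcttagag
In Cish the matches were TTCCTGGAA at -241 to -233, TTCTTGGAA at -230 to -222, TTCTAGGAA at -136 to -128 and TTCCGGGAA at -119 to -111, counted from the start. A match is a string of letters and not a measured site, and no binding was measured here. Sequence outside these windows was not searched, so 0 matches does not mean that a gene lacks STAT5 sites.

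Signals are deposited log2 values from RMA, a method that corrects, quantile normalizes and summarizes the probes of a set. A difference is the log2 mean of a dose (n = 3) minus that of vehicle (n = 5), with its SE, from a single limma model of the 17 arrays. P-values were adjusted by Benjamini-Hochberg over all 14217 genes, and an adjusted p under 0.05 counts as passing. All 4 doses share the same 5 vehicle rats. Values ran from 2.61 to 15.4 on the arrays, and array medians from 6.29 to 6.40. Correlations between pairs of arrays were 0.974 to 0.995. The 3 arrays with the lowest median correlation to the others were 76.5 mg/kg rats 2 and 3 (0.987 and 0.986) and 611 mg/kg rat 2 (0.984). The last also had a GAPDH 3' minus 5' control difference of 2.89, a sign of RNA quality, against 0.93 to 1.56 on the other 16 arrays. Many results are given with and without these 3 arrays, and others, such as the correlations with other genes, only with all 17 arrays. Leaving them out keeps only rat 1 at 76.5 mg/kg and rats 1 and 3 at 611 mg/kg.

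At the 2 higher doses Igfbp3 fell to about the same lower level, and at 611 mg/kg Socs2 fell as well. At 611 mg/kg 2 of the 8 genes passed the test, both lower, where 2.42% of all genes passed as lower. At 305.5 mg/kg 1 of the 8 passed, Igfbp3, where 1.47% of all genes passed as lower. None of the 8 passed at 76.5 mg/kg, where 0.267% of genes passed in either direction, or at 153 mg/kg, where 0.746% did. At an unadjusted p under 0.05 in limma 2 of the 8, Igfals and Ghr, differed at 76.5 mg/kg, where 10.7% of all genes did, and 0 at 153 mg/kg, where 11.9% did. A slope over the rank of the 5 groups passed downward for 4 genes, Igfbp3, Socs2, Igfbp2 and Igf1, where 2.78% of all genes did. Without the 3 arrays named above 4 genes passed at 305.5 mg/kg (Igfbp3, Igf1, Igfbp2 and Ghr), 2 at 611 mg/kg (Igfbp3 and Socs2) and 4 in the slope (Igfbp3, Socs2, Igfbp2 and Ghr). The share of all genes that passed without those arrays was not counted, here or below, so the shares above do not apply to these counts. With all 17 arrays the median difference of the 8 genes was -0.18 at 76.5, -0.18 at 153, -0.43 at 305.5 and -0.49 at 611 mg/kg, while the median of all genes stayed between -0.00 and 0.01. The 8 genes split at the top dose, with Socs2 lowest and Stat5b at the vehicle level.

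**Figure D1:**
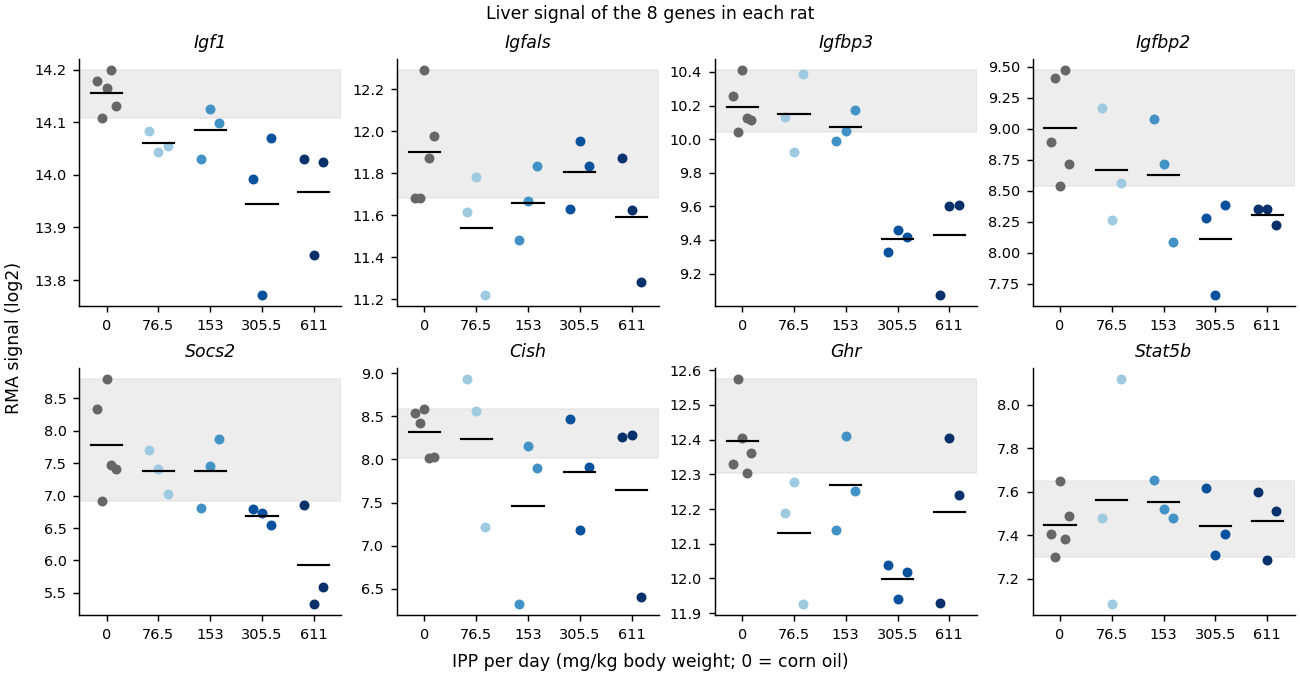
RMA signal (log2) of each of the 8 genes in each rat against the daily amount of IPP in mg/kg, with 0 for corn oil, each panel on its own scale. Points are rats, black lines are group means and the grey band spans the 5 vehicle rats; all 6 rats at 305.5 and 611 mg/kg lie below the band for Igfbp3 and Socs2, and Stat5b stays around it.

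Ghr encodes the growth hormone receptor. Its signal was 12.33, 12.57, 12.40, 12.30 and 12.36 in the vehicle rats. It was 12.19, 12.28 and 11.93 at 76.5 mg/kg, 12.14, 12.41 and 12.25 at 153 mg/kg, 12.04, 11.94 and 12.02 at 305.5 mg/kg, and 11.93, 12.41 and 12.24 at 611 mg/kg. All 3 rats at 76.5 and at 305.5 mg/kg lay below every vehicle rat, while at 153 and 611 mg/kg 1 rat of each group lay inside the vehicle range. The difference was -0.26 ± 0.11 at 76.5 mg/kg (adjusted p = 0.381), -0.13 ± 0.11 at 153 mg/kg (0.662), -0.40 ± 0.11 at 305.5 mg/kg (0.0612) and -0.20 ± 0.11 at 611 mg/kg (0.249), and none passed. At 305.5 mg/kg Ghr passed under 10 of 31 alternative settings, among them the fit without the 3 arrays named above and a looser threshold, so its call there depends on the setting. Its slope of -0.06 ± 0.03 per rank did not pass (adjusted p = 0.182).

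Stat5b encodes the STAT5 form that dominates in liver. Its 5 vehicle signals ran from 7.30 to 7.65 with a median of 7.41. They were 7.48, 7.08 and 8.12 at 76.5 mg/kg, 7.65, 7.52 and 7.48 at 153 mg/kg, 7.62, 7.31 and 7.41 at 305.5 mg/kg, and 7.60, 7.29 and 7.51 at 611 mg/kg. The treated groups overlapped the vehicle range at every dose, and 76.5 mg/kg rat 3, one of the 3 arrays that stood apart, was the highest of all. The difference at 611 mg/kg was 0.02 with a 95% confidence interval of -0.33 to 0.37, and at 305.5 mg/kg it was -0.00 with an interval of -0.35 to 0.34. The array reads RNA, and the phosphorylation of STAT5B that carries the hormone signal was not measured.

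Socs2 encodes a feedback inhibitor of the receptor and had the largest difference of the 8 genes. Its vehicle signals were 8.34, 6.92, 8.79, 7.47 and 7.41, a spread of 0.76 (SD, n = 5). They were 7.71, 7.41 and 7.02 at 76.5 mg/kg, 6.81, 7.46 and 7.88 at 153 mg/kg, 6.79, 6.73 and 6.55 at 305.5 mg/kg, and 6.85, 5.33 and 5.60 at 611 mg/kg. The 6 rats of the 2 higher doses all lay below the lowest vehicle rat, 2 of them by a wide margin, and the 2 lower doses overlapped vehicle. Socs2 fell by 1.86 ± 0.38 at 611 mg/kg (adjusted p = 0.00741), a change of -72.5% on the linear scale, with a confidence interval of -2.66 to -1.06. At 305.5 mg/kg the difference of -1.10 ± 0.38 did not pass (adjusted p = 0.175). Across ranks Socs2 fell by 0.43 ± 0.08 per step (adjusted p = 0.00458). The step from 305.5 to 611 mg/kg was -0.76 ± 0.42 and did not pass (adjusted p = 0.378). The lowest value belongs to 611 mg/kg rat 2, the array with the high GAPDH difference. Without that rat the difference at 611 mg/kg was -1.56 and did not pass (adjusted p = 0.0566), and without all 3 arrays that stood apart it was -1.56 and passed (0.0431). The pass without the 3 arrays was lost when all probe sets were tested, so it depends on the setting. The signals of 5.33 and 5.60 lay under the medians of their arrays, 6.29 and 6.35, and the deposited values carry no detection call.

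Cish encodes CIS, the other feedback inhibitor, and is the gene with the 4 promoter matches shown above. Its vehicle signals were 8.54, 8.43, 8.59, 8.02 and 8.03. They were 8.93, 8.56 and 7.21 at 76.5 mg/kg, 6.32, 8.16 and 7.90 at 153 mg/kg, 8.47, 7.18 and 7.91 at 305.5 mg/kg, and 8.26, 8.28 and 6.40 at 611 mg/kg. In each treated group 1 or 2 rats lay below the vehicle range and the rest lay in it or, in 1 rat at 76.5 mg/kg, above it. The SD was 0.28 in vehicle and 0.65 to 1.08 in the treated groups. The difference was -0.86 ± 0.47 at 153 mg/kg (adjusted p = 0.496) and -0.68 ± 0.47 at 611 mg/kg (adjusted p = 0.396), with an interval at 611 mg/kg of -1.67 to 0.32.

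Igf1 encodes IGF-I, the hormone the liver releases under growth hormone. Its vehicle signals were 14.18, 14.11, 14.16, 14.20 and 14.13. They were 14.08, 14.04 and 14.05 at 76.5 mg/kg, 14.03, 14.13 and 14.10 at 153 mg/kg, 13.99, 13.77 and 14.07 at 305.5 mg/kg, and 14.03, 13.85 and 14.02 at 611 mg/kg. At 76.5, 305.5 and 611 mg/kg all 3 rats lay below every vehicle rat, and at 153 mg/kg 2 of 3 did. Igf1 had the tightest replicates of the 8, with a residual SD of 0.082, smaller than that of all but 3.57% of genes. The differences were small: -0.10 ± 0.06, -0.07 ± 0.06, -0.21 ± 0.06 and -0.19 ± 0.06 from the lowest dose to the highest, and none passed. The adjusted p was 0.107 at 305.5 mg/kg and 0.0833 at 611 mg/kg. At 611 mg/kg Igf1 passed under 4 of 31 alternative settings, with the mean over its probe sets, a repeated quantile normalization, a threshold of 0.1 and 305.5 mg/kg rat 2 left out. Its difference there ran from -0.41 to -0.13 and the adjusted p from 0.0175 to 0.373 over these 31. At 305.5 mg/kg it passed under 1 of them, the fit without the 3 arrays named above. Across ranks Igf1 fell by 0.05 ± 0.01 per step (adjusted p = 0.0366). That call was lost in 15 of 33 alternative fits, among them the fit that left those 3 arrays out (adjusted p = 0.0610). The signal lies near the top of the measured range, where arrays can compress differences, and whether it did so was not tested.

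Igfals encodes the acid-labile subunit. Its vehicle signals were 11.68, 11.68, 12.29, 11.87 and 11.98, and vehicle rat 3, which was also highest for Socs2 and Igfbp3, stood highest. They were 11.61, 11.78 and 11.22 at 76.5 mg/kg, 11.48, 11.67 and 11.83 at 153 mg/kg, 11.63, 11.96 and 11.84 at 305.5 mg/kg, and 11.88, 11.63 and 11.28 at 611 mg/kg. Every treated group overlapped vehicle. The differences of -0.36 ± 0.16, -0.24 ± 0.16, -0.09 ± 0.16 and -0.31 ± 0.16, from the lowest dose to the highest, did not follow the order of the doses and did not pass, with adjusted p from 0.247 to 0.856.

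Igfbp3 encodes the main carrier of IGF-I in blood. Its vehicle signals were 10.26, 10.04, 10.41, 10.13 and 10.11. They were 10.13, 9.93 and 10.39 at 76.5 mg/kg and 9.99, 10.05 and 10.17 at 153 mg/kg. They were 9.33, 9.46 and 9.42 at 305.5 mg/kg and 9.07, 9.60 and 9.61 at 611 mg/kg. The 2 lower doses overlapped vehicle, while the 6 rats of the 2 higher doses lay below all 11 others. Igfbp3 fell by 0.79 ± 0.13 at 305.5 mg/kg (adjusted p = 0.00320), a change of -42.0% on the linear scale. At 611 mg/kg it fell by 0.76 ± 0.13 (adjusted p = 0.00211), a change of -41.0%. The mean of the 2 higher doses minus that of the 2 lower doses was -0.70 ± 0.10 (adjusted p = 0.00913). This comparison uses no vehicle rat, and 0.225% of all genes passed it as lower. Igfbp3 was the 1 gene of the 8 to pass it, and Socs2 (-1.07 ± 0.30) had an adjusted p of 0.155.

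Between neighbouring doses no gene of the 8 passed in limma, and 2, Igfbp3 and Ghr, had an unadjusted p under 0.05, both from 153 to 305.5 mg/kg, where 9.41% of all genes had one. From 153 to 305.5 mg/kg Igfbp3 differed by -0.67 ± 0.14 with an unadjusted p of 0.00023 (limma), the largest step of the gene, but the adjusted p was 0.152. In that comparison 0 of the 14217 genes passed, 0% of all, although 1338 had an unadjusted p under 0.05. From 76.5 to 153 mg/kg likewise 0 genes passed with limma and 1134 (7.98%) had an unadjusted p under 0.05, and from 305.5 to 611 mg/kg 0.324% passed. From 305.5 to 611 mg/kg Igfbp3 differed by 0.02, with an interval of -0.28 to 0.33.

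Igfbp2 encodes another circulating carrier, whose liver RNA is known to rise in fasting and when growth hormone is lacking. Its vehicle signals were 8.90, 9.41, 8.54, 9.47 and 8.71. They were 9.17, 8.27 and 8.57 at 76.5 mg/kg, 9.08, 8.72 and 8.09 at 153 mg/kg, 8.28, 7.66 and 8.38 at 305.5 mg/kg, and 8.35, 8.35 and 8.22 at 611 mg/kg. All 6 rats of the 2 higher doses lay below every vehicle rat, the 3 at 611 mg/kg close together. The differences of -0.90 ± 0.25 at 305.5 mg/kg (adjusted p = 0.0794) and -0.70 ± 0.25 at 611 mg/kg (adjusted p = 0.104) did not pass. Across ranks Igfbp2 fell by 0.20 ± 0.06 per step (adjusted p = 0.0356), a call lost in 11 of 33 alternative fits.

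**Figure D2:**
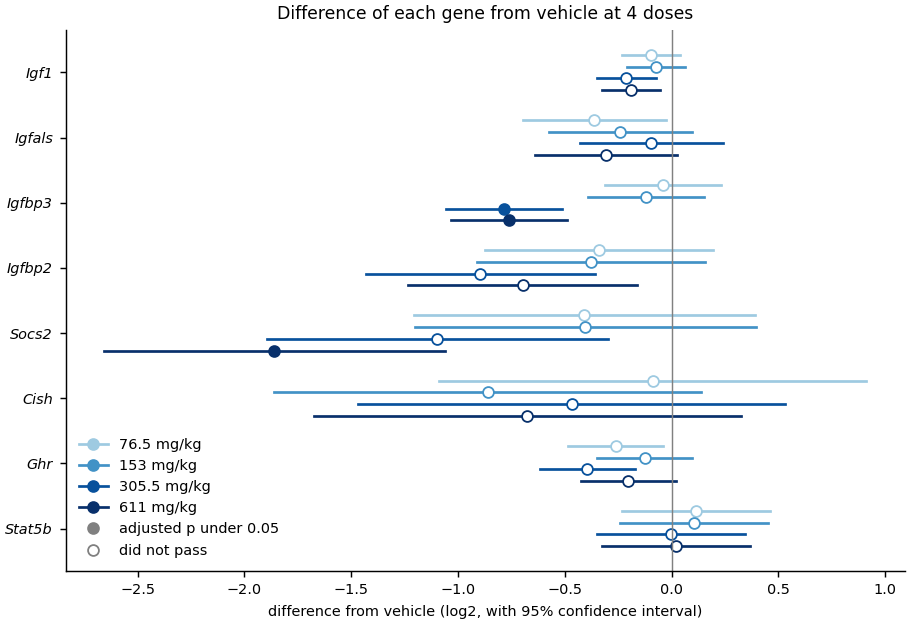
Difference from vehicle (log2) of each of the 8 genes at 76.5, 153, 305.5 and 611 mg/kg, with 95% confidence intervals from the limma fit. Filled circles passed at adjusted p under 0.05 over 14217 genes; they are Igfbp3 at 305.5 and 611 mg/kg and Socs2 at 611 mg/kg.

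Read by rank instead of by test, all 3 rats lay below every vehicle rat for 2 of the 8 genes at 76.5 mg/kg (Igf1 and Ghr), where 3.16% of all genes showed this, and for 0 at 153 mg/kg, where 4.42% did. At 305.5 mg/kg 5 genes did so (Igf1, Igfbp3, Igfbp2, Socs2 and Ghr), against 7.34% of all genes. At 611 mg/kg 4 did so (Igf1, Igfbp3, Igfbp2 and Socs2), against 7.13%. Over the 12 treated rats alone 0 of the 8 genes passed in the slope, and the share of all genes that did was not counted. There Igfbp3 had a slope of -0.28 ± 0.06 (unadjusted p = 0.000148 in limma, adjusted p = 0.0842) and Socs2 one of -0.50 ± 0.11 (unadjusted p = 0.000375, adjusted p = 0.103), both no smaller in size than over all 17 rats. For Igfbp2 the slope was -0.16 and for Igf1 -0.04.

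Rats of the same group differed widely in the feedback genes, for Socs2 in the vehicle group too and for Cish mainly in the treated groups. The residual SD within groups was 0.61 for Socs2 and 0.77 for Cish, larger than that of 99.4% and 99.7% of genes, against a median of 0.15. It was 0.40 for Igfbp2, 0.24 for Igfals, 0.25 for Stat5b, 0.18 for Igfbp3 and 0.15 for Ghr. Over the 17 rats, with each group centred on its mean, none of the 28 pairs of the 8 genes passed a permutation test within groups. The strongest positive pair was Igfals with Socs2, with Pearson's r = 0.62 (permutation p = 0.0371, adjusted 0.520) and Spearman's rho = 0.53 (permutation p = 0.0761, adjusted 0.567). Without the 2 rats farthest from the median of Igfals r was 0.48, and without the 3 arrays that stood apart it was 0.69. The strongest negative pair was Ghr with Stat5b, with r = -0.62 (permutation p = 0.0236, adjusted 0.520) and rho = -0.57 (permutation p = 0.0587, adjusted 0.567). Without the 2 farthest rats its r was -0.46, and without the 3 arrays that stood apart it was -0.24. Socs2 with Cish, the 2 feedback genes, had r = 0.47 (permutation p = 0.0897, adjusted 0.543).

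The 8 genes had 13 probe sets, and the second readings did not all match the first. Of the 3 Igf1 probe sets, the dimmest, 1382599_at, had signals of 11.53 to 11.79 in vehicle and 10.68 to 11.22 at 611 mg/kg, with no overlap. It fell by 0.68 ± 0.15 there (adjusted p = 0.0208 over all probe sets), and the middle one, 1388469_at, differed by -0.37 ± 0.13 (adjusted p = 0.131), both more than the -0.19 of the brightest. Without the 3 arrays that stood apart the dimmest differed by -0.54 ± 0.14 and did not pass (adjusted p = 0.0552). All 3 rats at 611 mg/kg lay below every vehicle rat on each of the 3 Igf1 probe sets. The other Igfbp3 probe set, 1367652_at, differed by -0.83 ± 0.22 at 305.5 mg/kg (adjusted p = 0.0822) and fell by 0.93 ± 0.22 at 611 mg/kg (adjusted p = 0.0242). With those arrays left out it passed at both doses (adjusted p = 0.0448 and 0.0342). The other Cish probe set, 1388233_at, differed by -0.71 ± 0.31 at 611 mg/kg (adjusted p = 0.220). In 611 mg/kg rat 2 it read 5.51, below its vehicle range of 6.36 to 7.01, while the brightest Cish probe set read 8.28 in that rat, inside its own vehicle range. The other Ghr probe set, 1368924_at, differed by 0.23 ± 0.25 at 611 mg/kg, the opposite sign to the brightest, and neither passed. The parts of the transcripts that the probe sets cover were not analysed here.

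**Figure D3:**
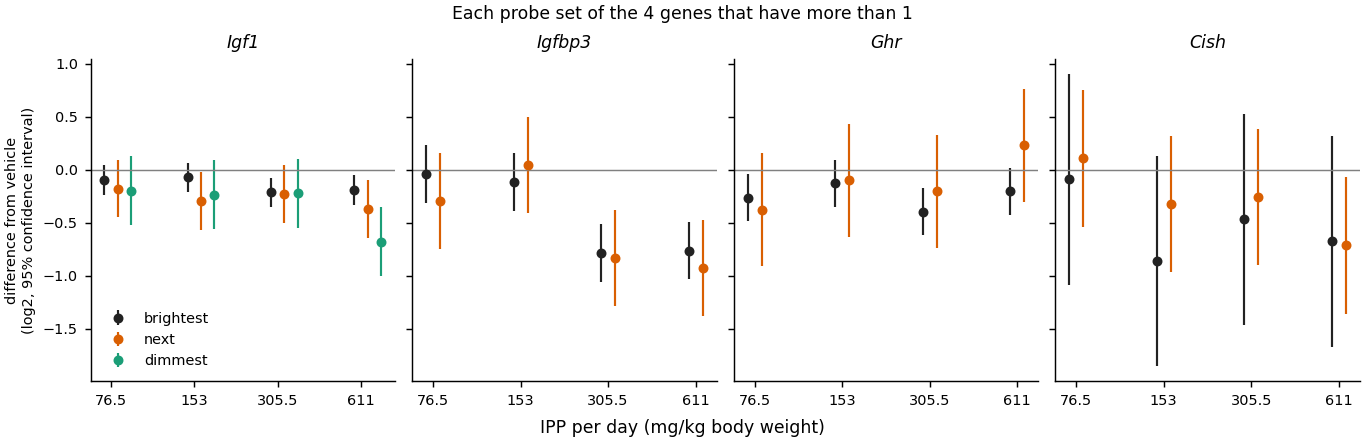
Difference from vehicle (log2) with 95% confidence intervals for every probe set of the 4 genes that have more than 1, at each dose in mg/kg. Both Igfbp3 probe sets lie well below 0 at the 2 higher doses, the dimmest Igf1 probe set is the lowest of its gene at 611 mg/kg, and the Ghr probe sets part at 611 mg/kg.

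Of 11 measured genes around the receptor and its signalling, 1 passed at 611 mg/kg and it was higher, where 5.04% of all genes passed as higher. It was Insr, the insulin receptor gene. Its signals ran from 7.30 to 7.48 in vehicle and were 7.85, 8.11 and 8.05 at 611 mg/kg, a difference of 0.62 ± 0.15 (adjusted p = 0.0159) that was 0.57 ± 0.10 without the 3 arrays that stood apart (0.00329). It also rose across ranks by 0.13 ± 0.03 per step (adjusted p = 0.0222). Jak2, the kinase bound to the receptor, differed by -0.04 ± 0.15 at 611 mg/kg, and Stat5a, the sister of Stat5b, by -0.20 ± 0.09 (adjusted p = 0.196). The list median at 611 mg/kg was -0.20, beside -0.00 over all genes.

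Of 10 further measured genes of the IGF system, 2 passed at 611 mg/kg, both lower, where 2.42% of all genes passed as lower. Igfbp7, whose product binds IGFs weakly and is made in vessel walls, fell by 0.54 ± 0.16 (adjusted p = 0.0416), and by 0.63 ± 0.16 without the 3 arrays (0.0294). Its vehicle signals ran from 10.53 to 11.15, and the 3 rats at 611 mg/kg read 10.27, 10.47 and 10.16, all below. Htra1, a secreted protease that cleaves IGF-binding proteins, fell by 0.29 ± 0.08 (adjusted p = 0.0405), from 10.35 to 10.48 in vehicle to 10.22, 9.98 and 10.11. Htra1 differed by -0.23 ± 0.08 without the 3 arrays and did not pass (adjusted p = 0.108). Igfbp1, the carrier that insulin suppresses, differed by -1.24 ± 0.33 between the 2 higher and the 2 lower doses (adjusted p = 0.133). Its mean was 11.98 in vehicle, 12.43 at 76.5, 12.29 at 153, 10.97 at 305.5 and 11.26 at 611 mg/kg. Both lower doses thus lay above vehicle, and the highest rat at 611 mg/kg read 12.59, inside the vehicle range of 11.38 to 13.08. The list median at 611 mg/kg was -0.21.

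Of 7 other known STAT5-linked or growth hormone-responsive genes, 9 male-predominant genes, 7 measured female-predominant genes and 6 measured genes of the fasting and insulin response, 0 passed in any of the comparisons of a dose with vehicle or in the slope. At an unadjusted p under 0.05 in limma they held 1, 4, 0 and 1 genes at 611 mg/kg, where 24.2% of all genes did, and their medians there were -0.25, -0.05, 0.03 and -0.17. These counts were 3, 4, 1 and 0 at 76.5 mg/kg, where 10.7% of all genes did. They were 1, 3, 2 and 1 at 153 mg/kg (11.9% of all genes) and 3, 1, 2 and 1 at 305.5 mg/kg (13.5%). Cyp2c11, the P450 that the male pulse pattern maintains in rat liver, differed by 0.00 ± 0.08 at 611 mg/kg, with a signal near the top of the measured range. The 4 male-predominant genes with an unadjusted p under 0.05 there were Obp3 (-0.71 ± 0.24, adjusted p = 0.0818), Mup5 (-0.35 ± 0.13, 0.0997), Car3 (-0.26 ± 0.09, 0.0957) and Cyp3a2 (0.14 ± 0.05, 0.124), 3 of them below 0. Obp3 also differed by -0.84 ± 0.24 at 76.5 mg/kg (adjusted p = 0.193) and -0.80 ± 0.24 at 153 mg/kg (0.177). At 305.5 mg/kg its mean was 13.14, beside 13.33 in vehicle. Cyp2c12, the P450 of the steady female pattern, differed by 0.54 ± 0.28 (adjusted p = 0.244). Of these lists 3 genes passed when the 3 arrays that stood apart were left out, all at 305.5 mg/kg: Cux2 as higher, and Egfr and Cebpd as lower.

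Since Igfbp3 RNA in rat liver is known to come from non-parenchymal cells, marker levels were read beside it. All 8 measured endothelial markers had differences below 0 at both higher doses. Of these, 1 passed at 305.5 mg/kg (Pecam1, -0.37 ± 0.08, adjusted p = 0.0236), where 1.47% of all genes passed as lower. At 611 mg/kg 5 passed, where 2.42% of all genes passed as lower. The sinusoidal scavenger receptor gene Stab2 fell by 0.91 ± 0.13 there (adjusted p = 0.000703), Fcgr2b by 0.79 ± 0.15, Lyve1 by 0.71 ± 0.14, Kdr by 0.43 ± 0.10 and Pecam1 by 0.38 ± 0.08. Without the 3 arrays that stood apart 4 passed as lower at 305.5 mg/kg, Pecam1 among them, and 6 at 611 mg/kg, the same 5 and Tek. The mean of the 8 markers was 9.50 ± 0.12 (SD, n = 5) in vehicle, 9.48 ± 0.11 at 76.5, 9.62 ± 0.02 at 153, 9.13 ± 0.18 at 305.5 and 9.002 ± 0.04 at 611 mg/kg (SD, n = 3 each). The log2 of their summed signal was 12.66 to 12.95 in vehicle, 12.13 to 12.56 at 305.5 and 12.20 to 12.28 at 611 mg/kg, and no marker was at 0. The endothelial mean separated the 6 rats of the 2 higher doses from all 11 others, as Igfbp3 did. In the comparison of the 2 higher with the 2 lower doses 5 of the 8 markers also passed as lower, where 0.225% of all genes did. The median difference of the 8 was -0.48. That comparison includes the 3 arrays that stood apart.

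Subtracting the endothelial mean from Igfbp3 in each rat gave 0.83, 0.66, 0.76, 0.70 and 0.50 in vehicle and 0.74, 0.32 and 0.94 at 76.5 mg/kg. It gave 0.39, 0.43 and 0.54 at 153 mg/kg, 0.41, 0.22 and 0.20 at 305.5 mg/kg, and 0.08, 0.55 and 0.65 at 611 mg/kg. On this scale the 3 rats at 305.5 mg/kg lay below every vehicle rat, and 2 of the 3 at 611 mg/kg lay inside the vehicle range. The part of the endothelial markers in the Igfbp3 result was not tested.

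Markers of other cells were read the same way. The mean of 7 macrophage markers, the list that covers Kupffer cells, was 9.69 ± 0.19 in vehicle, 9.32 ± 0.10 at 305.5 and 9.47 ± 0.20 at 611 mg/kg. In limma 0 of 7 passed, though 5 at 305.5 mg/kg and 3 at 611 mg/kg had an unadjusted p under 0.05, as did 13.5% and 24.2% of all genes. Without the 3 arrays that stood apart 2 passed at 305.5 mg/kg (Adgre1 and Cd163) and 1 at 611 mg/kg (Adgre1), all lower. The log2 of their summed signal was 12.69 to 13.23 in vehicle and 12.64 to 13.14 over the 2 higher doses. Of 9 stellate cell and fibroblast markers, 1 passed as lower at 305.5 mg/kg and 2 at 611 mg/kg (Pdgfrb and Acta2). Over all genes 1.47% and 2.42% passed as lower at these doses. With those arrays left out 3 passed as lower at each of the 2 doses, Pdgfrb among them at both and Acta2 at neither. Their log2 summed signals were 12.03 to 12.41 in vehicle and 11.60 to 12.13 over the 2 higher doses. Their mean was 7.79 ± 0.12 in vehicle (lowest rat 7.65), 7.50 ± 0.12 at 305.5 and 7.47 ± 0.05 at 611 mg/kg. The highest rats at those 2 doses read 7.62 and 7.50, so all 6 rats lay below every vehicle rat. Rats at 153 mg/kg read 7.55 to 7.70 and overlapped both. In limma 6 of 9 at 305.5 and 7 at 611 mg/kg had an unadjusted p under 0.05, as did 13.5% and 24.2% of genes. The 7 hepatocyte markers had a mean of 14.40 ± 0.03 in vehicle and 14.37 ± 0.03 at 611 mg/kg, and 0 passed at either higher dose, with 1 of 7 at 305.5 mg/kg and 0 at 611 mg/kg at an unadjusted p under 0.05 in limma. Their mean was 14.2 to 14.5 on all 17 arrays, so the defining markers of liver were present in every sample. Apart from Hnf4a, these markers lay near the top of the measured range, where arrays can compress differences. Whether that hid a change was not tested. Of 4 cholangiocyte markers Epcam passed as higher and Krt7 as lower at 611 mg/kg, but neither did without the 3 arrays. Over all genes 5.04% passed as higher and 2.42% as lower at 611 mg/kg. Of 6 lymphocyte markers 0 passed there and 2 had an unadjusted p under 0.05, as did 24.2% of all genes. The lymphocyte marker Cd8a passed as lower at 305.5 mg/kg without those arrays. The part of these cells in the results for the 8 genes was not tested.

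**Figure D4:**
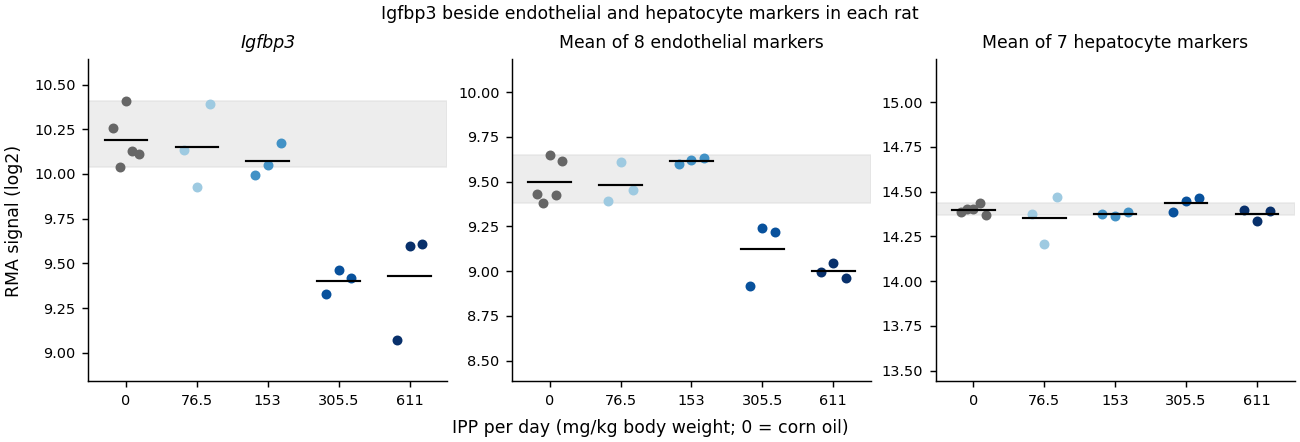
RMA signal (log2) of Igfbp3, the mean of 8 endothelial markers and the mean of 7 hepatocyte markers in each rat, against the daily amount of IPP in mg/kg, on axes of equal span. Points are rats, lines are group means and the grey band spans the 5 vehicle rats. Igfbp3 and the endothelial mean lie below the band in all 6 rats of the 2 higher doses. The hepatocyte mean stays near the band, at signals close to the top of the measured range.

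Correlations were ranked over the genes other than the 8. The 3 of these whose signal followed Igfbp3 most closely over the 17 arrays were Masp1 (Pearson's r = 0.90, Spearman's rho = 0.83), a lectin-pathway protease gene, Pecam1 (0.90 and 0.70), the endothelial junction gene already named, and Col14a1 (0.88 and 0.86), a fibril-associated collagen gene. Nearest to Socs2 were Epb41l2 (0.91 and 0.90), a membrane skeleton gene, Borcs6 (0.87 and 0.74) and Pltp (0.85 and 0.77), the phospholipid transfer protein gene. Nearest to Igf1 were Acsl5 (0.82 and 0.80), a fatty acid activating enzyme gene, Abraxas1 (0.81 and 0.67) and Ier2 (0.80 and 0.83), an immediate early gene. Nearest to Igfbp2 were Acy3 (0.81 and 0.79), the immediate early gene Egr1 (0.79 and 0.72) and Slc17a4 (0.78 and 0.74). These correlations are descriptions over the same arrays and doses, with no test.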

How the data were processed

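Liver RNA of 17 rats was read on 1 Affymetrix rat array per animal, and groups, doses and rat numbers were taken from the labels. The deposited values are log2 signals that the authors made with RMA, per the submitters' processing notes. The RMA software is not given in the sources used. All 17 columns matched a label, and the fit used every array.

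The table held 31099 probe sets. Of these 57 were controls, 20826 had 1 gene symbol in the platform annotation, 436 several and 9780 none. Each of 14217 genes was represented by its brightest probe set, a choice for 4525 genes, with no filter on signal. Gene names were checked by gene ID against RefSeq (20758 probe sets matched, 0 symbols changed). Car3 stands for Ca3.

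Groups were compared with limma 3.58.1 in R 4.3.3, with the 5 groups as a factor and eBayes with a trend on mean signal. Each dose was set against vehicle and against its neighbour, the 2 higher against the 2 lower doses, and a slope was fitted over group rank (0 to 4). Each comparison had its own Benjamini-Hochberg adjustment. Second probe sets were tested in the same way over all non-control probe sets. Pairs of genes were tested by 100000 permutations of rats within groups. The fit was tested on simulated data. The number of arrays limits the precision.

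The 8 genes, the pathway and marker lists and the promoter letters were chosen with earlier results of these data known. Named from each list were its called genes, and for the 4 genes with a slope call the 3 genes outside the 8 with the highest Pearson's r. Jak2, Stat5a, Igfbp1, Cyp2c11, Cyp2c12, Obp3, Mup5, Car3 and Cyp3a2 did not pass and were named after their values were seen. Rat numbers name the animals within a group. Promoter sequences are from RefSeq on GRCr8. Alternatives covered the choice of probe set, dim genes, scaling, array weights, variance models, a replicate block, single groups, each rat left out, the 3 arrays that stood apart, the GAPDH difference as a covariate, thresholds and the dose scale. The fit of the listed genes and second probe sets without those 3 arrays was added after seeing the data, and the genes it alone called were named from it.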

Additional observations from a re-analysis of the deposited data

Results flagged for a closer look

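Of 19 values tested in the group of 5 vehicle rats, 1 stood out as having a rat far from the others. It was the mean of the macrophage markers, read beside Igfbp3, which was 9.35 in vehicle rat 2 against 9.84 in the highest vehicle rat. The gap to the nearest rat took up 0.768 of the group's whole range, above Dixon's limit of 0.71 for 5 samples. Chance alone marks about 1 in 20 such groups, and none of the 8 genes stood out in this way in the vehicle group.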

How the results depend on the processing

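Of 34 alternative settings, 17 left out 1 rat each. Igfbp3 kept its calls at 305.5 mg/kg, at 611 mg/kg and between the higher and lower doses in 31 of 31 settings run on them, and its slope call in 32 of 33. Socs2 kept its call at 611 mg/kg in 30 of 31 settings (lost without 611 mg/kg rat 2, -1.56, adjusted p = 0.0566) and its slope call in 31 of 33, Igfbp2 its slope call in 22 of 33 and Igf1 in 18 of 33. Calls were also gained where none was reported: Igf1 passed at 611 mg/kg in 4 of 31 settings and at 305.5 mg/kg in 1, Igfbp2 at 305.5 mg/kg in 4 and Socs2 in 1, and Ghr at 305.5 mg/kg in 10. The cause was not tested for any of these.

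The number of the 8 genes that passed at 305.5 mg/kg, 1 as reported, was 2 without the dimmest 40% of genes or with the GAPDH covariate, 3 with the compared groups alone or at adjusted p under 0.1, and 4 with array weights or without the 3 arrays that stood apart. Leaving out single rats gave 1 to 2, with 2 without 76.5 mg/kg rat 2 or 3 or 611 mg/kg rat 1 or 2. At 611 mg/kg leaving out rats gave 1 to 3. The slope count of 4 was 5 with array weights, with Ghr added, 2 over all probe sets, with the replicate block, at adjusted p under 0.01 and per 100 mg/kg, 1 without the 611 mg/kg group, 0 over the treated rats alone, and 2 to 4 with a rat left out (2 without vehicle rat 1, 2 or 4 or 305.5 mg/kg rat 1). Array weights gave 2 for the higher against the lower doses and 1 between neighbouring doses. Apart from the scalings given below, the share of all genes that passed under these settings was not counted. Deviations of same-numbered rats correlated at -0.26 to 0.40 (mean 0.02 over 30 pairs, 10 over 0.1). Those of different-numbered rats correlated at -0.35 to 0.34 (mean -0.009 over 60 pairs, 12 over 0.1). These values do not settle whether rat numbers pair the samples. Beside the slope count, the replicate block changed no other count.

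Differences that changed sign had not passed. At 76.5 mg/kg Igfbp2 was 0.11 with array weights and 0.16 without the 3 arrays, and Cish 0.0107 over all its probe sets, 0.49 with weights, 0.61 without the 3 arrays and 0.0253 with the covariate. Stat5b was 0.0107 at 305.5 mg/kg and -0.0270 at 611 mg/kg with arrays centred on their medians, and 0.0014 and -0.0145 with a repeated quantile normalization. Ghr over both probe sets was 0.0138 at 611 mg/kg and 0.0731 between higher and lower doses, where Igfals was -0.0014 with weights. Slopes were 0.0311 for Igfals in treated rats alone, and for Stat5b 0.0160 with weights, 0.0181 without the 3 arrays, 0.0054 with the covariate and 0.0063 without the 611 mg/kg group. With 1 rat left out, the ranges at 76.5 mg/kg were -0.16 to 0.0735 for Igfbp3, -0.44 to 0.42 for Cish and -0.16 to 0.35 for Stat5b. At 305.5 mg/kg they were -0.17 to 0.0027 for Igfals and -0.0887 to 0.0662 for Stat5b. For Stat5b they were -0.0462 to 0.11 at 611 mg/kg, -0.0123 to 0.0131 in the slope and -0.22 to 0.0378 between higher and lower doses, where Cish ran from -0.38 to 0.22.

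Over all genes, 716 passed as higher and 344 as lower at 611 mg/kg, against 543 and 471 after median centring and 553 and 412 after repeated quantile normalization. At 153 mg/kg the split of 58 and 48 became 49 and 71, and 46 and 63. These scalings moved the median of all genes by -0.05 to 0.02 on the log2 scale.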
